A study of Homo sapiens with 6 samples.

Results

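The genes described here are 7 effectors of ATF4, the transcription factor that carries the amino acid and endoplasmic reticulum stress response: CHAC1, TRIB3, VLDLR, NUPR1, XPOT, LONP1 and CHAC2. They were taken as the rows of the count table whose Ensembl identifiers map to these symbols, 7 of 61533 gene rows, and were chosen as ATF4-induced genes that are not enzymes or carriers of amino acids. They and the lists set beside them below were chosen with earlier results of these data known. Each of the 7 genes mapped to 1 row. Their levels were compared between shKDM2B and empty vector (EV) MDA-MB-231 cells. MDA-MB-231 is an established cell line from a human triple-negative breast cancer, with mesenchymal features. The 3 shKDM2B libraries come from cells with a short hairpin RNA against KDM2B, a histone demethylase that also brings the Polycomb complex PRC1.1 to CpG-rich DNA, and are labelled as KDM2B knockdown. The 3 EV libraries come from the same line with an empty vector and are labelled as wild type. Both groups were grown in medium with added nonessential amino acids, glutamine, pyruvate and serum and were harvested below confluence, so neither was starved or treated with a stressor per the labels. Ribosomal RNA was depleted from total RNA before library preparation. The labels do not say whether the cells are a clone or a pool, and the count columns of the knockdown carry a single hairpin code.

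In the integrated stress response, kinases that sense lack of amino acids, misfolded protein, double-stranded RNA or lack of heme phosphorylate the initiation factor eIF2. Translation in general then slows while that of ATF4 increases, and ATF4 switches on genes for amino acid supply, redox balance and its own shutdown. Its output depends strongly on the amount of ATF4 protein, which messenger RNA counts do not measure. The effectors named here act at different places. CHAC1 and CHAC2 break down glutathione, TRIB3 is a pseudokinase that binds AKT and restrains ATF4 and CHOP, NUPR1 is a small stress-induced chromatin protein, XPOT exports transfer RNA from the nucleus, LONP1 is a protease of the mitochondrial matrix, and VLDLR is a cell surface receptor for lipoproteins and reelin.

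The promoters of the CHAC pair are shown because these paralogs differed widely in their response. ATF4 binds, as a partner of C/EBP proteins, to the C/EBP-ATF response element, searched here as TGATGNAA on both strands. Each window runs from 250 bases before to 50 bases after a RefSeq gene start (GRCh38.p14). Capitals mark a match, which in CHAC1 reads on the opposite strand.
CHAC1 (chr15:40953221-40953520, plus strand): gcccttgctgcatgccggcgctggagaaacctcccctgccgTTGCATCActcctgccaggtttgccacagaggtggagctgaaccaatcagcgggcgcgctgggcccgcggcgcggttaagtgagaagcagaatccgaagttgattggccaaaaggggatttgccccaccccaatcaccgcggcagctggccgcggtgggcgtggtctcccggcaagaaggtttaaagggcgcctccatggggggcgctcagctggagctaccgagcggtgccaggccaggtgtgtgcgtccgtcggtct
CHAC2 (chr2:53767533-53767832, plus strand): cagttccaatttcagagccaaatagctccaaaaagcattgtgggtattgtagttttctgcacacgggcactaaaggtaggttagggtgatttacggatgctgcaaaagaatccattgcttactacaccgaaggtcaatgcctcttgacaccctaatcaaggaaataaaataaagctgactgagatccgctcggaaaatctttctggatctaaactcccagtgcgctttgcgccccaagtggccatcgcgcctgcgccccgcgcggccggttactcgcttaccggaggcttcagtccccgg
The CHAC1 match, TTGCATCA, begins 209 bases before the start. Windows were found for 6 of the 7 genes, several with more than 1 start, and CHAC1 was the 1 gene among them with a match. NUPR1 was not among the tables' entries. Of all 35116 RefSeq windows 3.62% hold the motif, and of the 27305 genes they belong to 4.46% hold it in at least 1 window. The cyclic AMP response element TGACGTCA, searched likewise and held by 2.25% of genes, was in none of the 6. Of the 25 other ATF4-induced genes with a window, 5 held the first motif (ATF3, CEBPG, FGF21, HERPUD1 and JDP2) and 1, PPP1R15A, the second. A match in such a window is a description of letters and not a binding site. The CG dinucleotide, the letters that KDM2B binds when unmethylated, occurred 24 times in the CHAC1 window, 17 and 21 times in the CHAC2 windows and 49 times in that of VLDLR. The TRIB3, XPOT and LONP1 windows held 30 to 38, and the median of all windows was 14 (quartiles 4 and 28).

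KDM2B was lower in every shKDM2B library than in any EV library, with 153, 166 and 224 counts in shKDM2B cells and 589, 714 and 902 counts in EV cells, which checks the labels. Library totals were 10437732 to 15737951 counts in shKDM2B and 10190149 to 13635565 counts in EV cells. Of 6 listed markers of this line, all measured, 2 were lower and 3 higher in shKDM2B. VIM, the mesenchymal filament vimentin, fell 3.20-fold and averaged 405.9 CPM in shKDM2B against 1299 CPM in EV cells (reads scaled to a common library size by TMM, edgeR adjusted p 1.43e-12). CAV1 was the other marker that fell, with a mean of 382.8 CPM in shKDM2B and 486.5 CPM in EV cells. AXL, EGFR and CD44 rose, with means of 2551, 1399 and 1258 CPM in shKDM2B against 2267, 1223 and 1094 CPM in EV cells. MSN was uncalled. The part of these changes in the results was not tested. Of 6 listed luminal and epithelial markers taken as absent or low in this line, 3 passed the filter and none of these was called. ERBB2 averaged 62.5 CPM in shKDM2B and 63.7 CPM in EV cells, EPCAM 10.2 and 9.03 CPM, and GATA3 6.90 and 5.57 CPM. The hormone receptor genes ESR1 and PGR, and CDH1, had at most 4 counts in any library. Across the table, 60.9% of the 14071 genes past the low-count filter were called at an adjusted p under 0.05 by edgeR's quasi-likelihood test, 30.4% lower and 30.5% higher in shKDM2B, and 65.5% had groups that did not overlap. The counts of called members below stand against that breadth. Mitochondrially encoded genes took 0.196 to 0.476% of counts in shKDM2B and 0.0767 to 0.151% in EV libraries, and the part of this difference in the results was not tested. None of 7 leukocyte, 5 fibroblast and 4 endothelial markers passed the filter. Their summed levels, per library total, were 0.785 to 1.08, 0.0958 to 0.61 and 1.02 to 1.82 CPM in shKDM2B, against 0.367 to 1.18, 0.0981 to 0.367 and 0.589 to 0.807 CPM in EV libraries, with CD3E and LYZ at 0 in all 6. In such bulk RNA, fewer cells with a transcript and less of it per cell cannot be told apart.

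ATF4 itself was lower in the knockdown, with 133, 138 and 134 CPM in shKDM2B libraries against 427, 513 and 441 CPM in EV libraries. Its level per length was 53.6 ± 0.953 RPKM in shKDM2B and 183.0 ± 18.5 RPKM in EV cells (SD, n = 3 each). RPKM here divides the TMM-scaled CPM by the length of all annotated exons of a gene in kilobases. The part of the ATF4 fall in the changes of the effectors was not tested.

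Of the 7 effectors, NUPR1 and CHAC1 were far lower in shKDM2B cells, TRIB3 fell 1.93-fold, LONP1 and XPOT fell by smaller amounts, CHAC2 sat at the threshold, and VLDLR rose. NUPR1 reached the low-count minimum in EV libraries alone and so could enter the test by being high there. Among the other 6, 5 were lower and 1 was higher at an adjusted p under 0.05 by edgeR, with a median log2 fold change of -0.46, beside -0.007 over all genes tested. Groups did not overlap for 5 of these 6, where 65.5% of all tested genes had groups that did not overlap. All 6 of these were called, where 60.9% of tested genes were. Only NUPR1 and CHAC1 of the 7 were at least 2-fold lower, as were 4.85% of all genes tested.

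**Figure D1:**
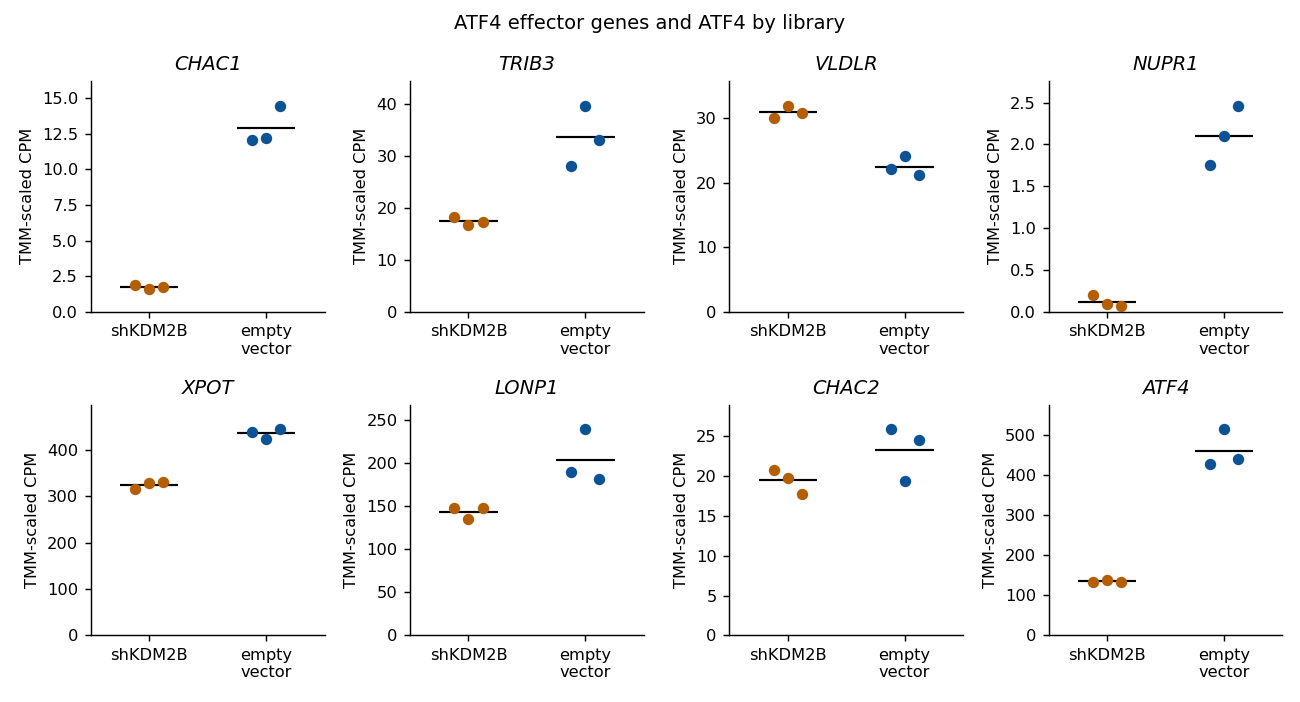
TMM-scaled CPM (counts scaled to library size, vertical axes from 0) of the 7 ATF4 effector genes and of ATF4 in each of the 3 shKDM2B and 3 empty vector libraries, with bars at the group means. The groups stand apart in every panel except CHAC2, where the empty vector library at 19.4 CPM lies among the shKDM2B libraries.

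CHAC1, which cleaves glutathione to 5-oxoproline and a dipeptide and is among the most strongly induced ATF4 targets, was 7.48-fold lower in the knockdown. Its counts were 19, 18 and 27 in shKDM2B replicates 1, 2 and 3, against 124, 128 and 200 in the EV replicates. Scaled, these were 1.85, 1.58 and 1.76 CPM in shKDM2B and 12.1, 12.2 and 14.5 CPM in EV libraries. All shKDM2B libraries lay far below all EV libraries, and both groups were tight. The log2 fold change was -2.90 (SE 0.16, edgeR adjusted p 2.87e-09), larger than that of ATF4 at -1.77 (SE 0.07). The size of the difference between those 2 genes was not tested. CHAC1 (ENSG00000128965.13) lies on chromosome 15 from 40952962 to 40956519 on the plus strand, and the GENCODE 29 annotation holds no gene that overlaps it.

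CHAC2, the paralog with slower and more constant activity towards glutathione, differed far less. It had 20.8, 19.8 and 17.8 CPM in shKDM2B libraries, from 214, 226 and 273 counts. In EV libraries it had 25.9, 19.4 and 24.5 CPM, from 266, 204 and 339 counts. The second EV library lay inside the shKDM2B range. The log2 fold change was -0.27 (SE 0.11, edgeR adjusted p 0.0479), and this call was lost when any 1 of the 3 shKDM2B libraries or EV replicate 1 or 3 was left out, with adjusted p from 0.0541 to 0.208. It was kept without EV replicate 2 (adjusted p 0.000558, with a range over all alternatives of 0.000558 to 0.407). DESeq2 and limma-voom did not call it (adjusted p 0.0843 and 0.0521). CHAC2 (ENSG00000143942.5, chromosome 2 from 53767792 to 53775196, plus strand) lies within the annotated span of ASB3 on the opposite strand, with no shared exon bases.

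The CHAC pair therefore shifted in balance. For every 100 CHAC2 counts there were 8.88, 7.96 and 9.89 CHAC1 counts in shKDM2B libraries, against 46.6, 62.7 and 59.0 in EV libraries. This within-library ratio does not depend on scaling. The mean log2 ratio was -3.46 ± 0.15 in shKDM2B and -0.84 ± 0.23 in EV cells (SD, n = 3 each), a difference of -2.62, or 6.15-fold. A two-sided exact permutation test gave p = 0.1, the smallest that 3 against 3 libraries allow. Per length of transcript, CHAC1 was at 0.839 ± 0.0671 RPKM in shKDM2B and 6.27 ± 0.662 RPKM in EV cells, and CHAC2 at 14.7 ± 1.17 and 17.6 ± 2.57 RPKM (SD, n = 3 each). CHAC2 was thus the more abundant of the pair in both groups.

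**Figure D2:**
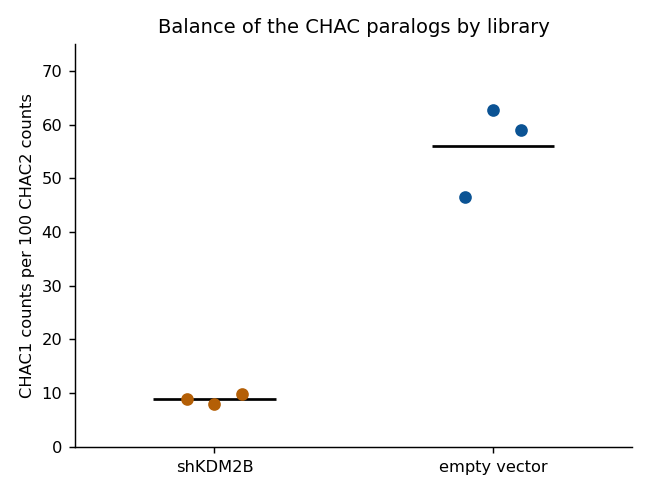
CHAC1 counts per 100 CHAC2 counts (vertical axis from 0) in each of the 3 shKDM2B and 3 empty vector libraries, with bars at the group means. The shKDM2B libraries lie between 7.96 and 9.89 and the empty vector libraries between 46.6 and 62.7.

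Other genes of glutathione turnover went both ways. Of 13 measured genes in a list of synthesis, breakdown and use of glutathione, 6 were higher, 3 were lower and 4 were uncalled. GGT5, 1 of the 6, reached the low-count minimum in shKDM2B libraries alone and so could enter the test by being high there. Among the other 12, 5 were higher, 3 lower and 4 uncalled, with a median log2 fold change of 0.09. Of all tested genes 30.5% were higher and 30.4% lower. GCLM, the modifier subunit of the first synthetic enzyme, rose with a log2 fold change of 0.71 (SE 0.09, edgeR adjusted p 5.03e-05). GPX4, which uses glutathione to reduce lipid peroxides, rose with 0.43 (SE 0.06), and GSS, which completes glutathione, fell by 0.42 on the log2 scale (SE 0.05). GGCT, which acts on the dipeptides left after gamma-glutamyl transfer, was at 13.8 CPM in shKDM2B and 15.3 CPM in EV cells and did not pass the threshold (edgeR adjusted p 0.297). It was chosen after its values were seen.

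TRIB3, a feedback gene of the response, fell in the knockdown. Its levels were 18.2, 16.6 and 17.4 CPM in shKDM2B libraries, from 187, 190 and 267 counts. They were 28.1, 39.7 and 33.1 CPM in EV libraries, from 289, 417 and 457 counts. The shKDM2B libraries were close together and below all EV libraries, which spread over a wider range. The log2 fold change was -0.95 (SE 0.11, edgeR adjusted p 5.46e-06), a 1.93-fold decrease. TRIB3 (ENSG00000101255.12) is annotated on chromosome 20 from 362835 to 397559 on the plus strand.

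The paralogs of TRIB3 went the other way. TRIB1, which directs C/EBP factors to the ubiquitin ligase COP1, was at 48.2, 46.6 and 52.9 CPM in shKDM2B libraries and at 25.4, 26.3 and 25.8 CPM in EV libraries. It rose with a log2 fold change of 0.93 (SE 0.07, edgeR adjusted p 8.85e-08). TRIB2, chosen after its values were seen, rose with 0.50 (SE 0.07, edgeR adjusted p 4.29e-05). AKT2, one of the kinases that TRIB3 binds, had a log2 fold change of -1.34 (SE 0.06, edgeR adjusted p 2.40e-10). AKT1 fell by 0.85 on the log2 scale (SE 0.06) and was chosen after its values were seen. With TRIB3 included, 3 of 7 measured genes of this list were lower and 3 higher. Of all tested genes 30.4% were lower and 30.5% higher.

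NUPR1 was rare in EV cells and rarer in the knockdown. Its counts were 2, 1 and 1 in shKDM2B libraries and 18, 22 and 34 in EV libraries, or 0.195, 0.0876 and 0.0651 CPM and 1.75, 2.10 and 2.46 CPM. All shKDM2B libraries lay below all EV libraries, but counts of 1 or 2 give an imprecise level. Summed over libraries there were 4 counts in shKDM2B and 74 in EV cells. The scaled EV level was 19.8 times the shKDM2B level, with an exact 95% interval from 7.42 to 74.7 that covers counting error only. The edgeR log2 fold change of -4.17 (SE 0.46, adjusted p 2.25e-06) depends on the small count added in the fit. NUPR1 (ENSG00000176046.9) lies on chromosome 16 from 28532708 to 28539174 on the minus strand.

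XPOT, the exportin for transfer RNA, is the most abundant of the 7 and fell by a modest, closely measured amount. It had 316, 328 and 331 CPM in shKDM2B libraries, from 3245, 3745 and 5076 counts. EV libraries had 438, 424 and 443 CPM, from 4501, 4448 and 6124 counts. The 3 libraries of each group were close together and the groups were well apart. The log2 fold change was -0.42 (SE 0.04, edgeR adjusted p 1.50e-06). XPOT (ENSG00000184575.12) lies on chromosome 12 from 64404350 to 64451127 on the plus strand. A processed pseudogene, XPOTP1, had 17 to 27 counts in shKDM2B and 21 to 35 counts in EV libraries.

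The decrease of XPOT was shared with other factors of nuclear transport. Of 15 measured genes in this list, XPOT included, 12 were lower, 0 were higher and 3 were uncalled. Without XPOT, 11 of 14 were lower, where 30.4% of all tested genes were lower. The median of the list was -0.36 on the log2 scale. NUP62, a central channel nucleoporin, fell with -0.64 (SE 0.06), the exportin XPO7 with -0.57 (SE 0.06) and XPO6, the exportin for actin, with -0.43 (SE 0.05). XPO5, the exportin for microRNA precursors, and XPO4 had log2 fold changes of 0.09 and 0.08 and did not pass the threshold (edgeR adjusted p 0.120 and 0.152). They were chosen after their values were seen. Against a 1.2-fold change, 7 of the 15 genes were called lower.

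LONP1, the ATP-dependent protease of the mitochondrial matrix, fell too. Its values were 147, 135 and 147 CPM in shKDM2B libraries, from 1515, 1547 and 2263 counts. They were 189, 239 and 182 CPM in EV libraries, from 1943, 2508 and 2509 counts. The shKDM2B libraries were all below the EV libraries, of which replicate 2 was highest. The log2 fold change was -0.50 (SE 0.09, edgeR adjusted p 5.84e-04), and it was -0.38 without that library. LONP1 (ENSG00000196365.12, chromosome 19 from 5691834 to 5720572, minus strand) shares a short stretch at its end with the last exon of RPL36 on the opposite strand, and whether the counting used strand is not stated in the sources used here. RPL36 had 825, 898 and 1148 counts in shKDM2B replicates 1, 2 and 3 and 1099, 1159 and 1373 counts in the EV replicates. These counts are not scaled for the unequal library totals, so their ranges do not compare the groups. The part of RPL36 reads in the change of LONP1 was not tested.

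Mitochondrial proteases and chaperones mostly fell with LONP1. Of 18 measured genes in a list of these and related genes, LONP1 included, 11 were lower, 1 was higher and 6 were uncalled. Across all tested genes 30.4% were lower. The list also held LONP2, a peroxisomal relative of LONP1 that was lower, and TFAM, a mitochondrial DNA factor that was uncalled. Both were named after their values were seen. The median of the list was -0.39 on the log2 scale. The chaperone TRAP1 fell with -1.05 (SE 0.07), the presequence protease PITRM1 with -1.02 (SE 0.06) and the inner membrane stress protease OMA1 with -0.89 (SE 0.12). CLPP, the other main matrix protease, fell by 0.85 on the log2 scale (SE 0.07, edgeR adjusted p 8.85e-08) and was chosen after its values were seen. The 1 gene that rose was YME1L1, an inner membrane protease, also chosen after its values were seen, at 0.34 (SE 0.04).

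VLDLR was the effector that rose. It had 30.0, 32.0 and 30.9 CPM in shKDM2B libraries, from 309, 365 and 474 counts. In EV libraries it had 22.1, 24.2 and 21.2 CPM, from 227, 254 and 293 counts. Every shKDM2B library lay above every EV library, with little spread in either group. The log2 fold change was 0.46 (SE 0.08, edgeR adjusted p 1.96e-04), a 1.38-fold increase. VLDLR (ENSG00000147852.17) lies on chromosome 9 from 2621834 to 2660053 on the plus strand and overlaps exons of the antisense gene VLDLR-AS1. That gene had 3 to 8 counts in shKDM2B and 4 to 17 counts in EV libraries.

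Several relatives and partners of VLDLR rose more. Of 15 measured genes of lipoprotein receptors and reelin signalling, VLDLR included, 9 were higher, 4 were lower and 2 were uncalled. LRP2, 1 of the 9, reached the low-count minimum in shKDM2B libraries alone. Among the other 14, 8 were higher, 4 lower and 2 uncalled, where 30.5% of all tested genes were higher, and their median was 0.42 on the log2 scale. MYLIP, the ubiquitin ligase that sends VLDLR to degradation, was at 30.7, 33.6 and 33.3 CPM in shKDM2B libraries and at 9.43, 11.5 and 9.92 CPM in EV libraries. It rose with 1.67 (SE 0.10, edgeR adjusted p 3.85e-09). The large receptor LRP1 rose 2.82-fold (edgeR adjusted p 4.42e-10), and RELN, which encodes the ligand reelin, rose 2.43-fold (edgeR adjusted p 8.52e-06). LRP8, the other reelin receptor, chosen after its values were seen, fell by 0.46 on the log2 scale (SE 0.05, edgeR adjusted p 3.40e-06).

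**Figure D3:**
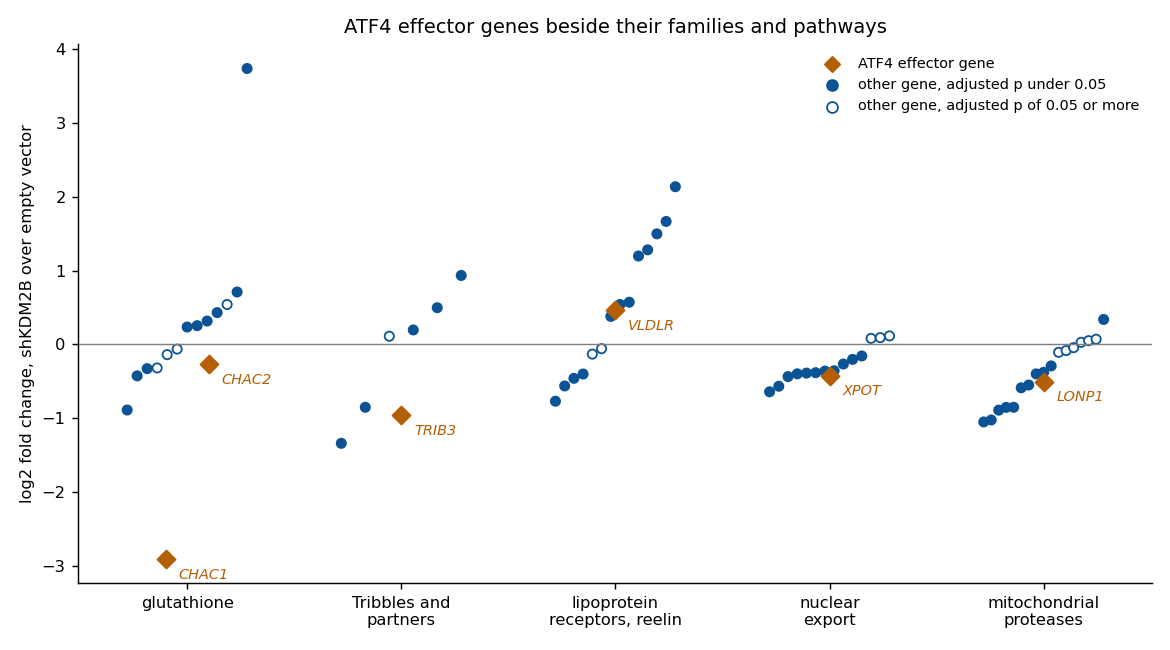
Log2 fold changes (shKDM2B over empty vector, vertical axis) of 6 ATF4 effector genes (diamonds) beside the measured genes of 5 family or pathway lists (circles, filled where the edgeR adjusted p is under 0.05). CHAC1 and CHAC2 are set beside the glutathione list, which does not hold them. CHAC1 at -2.90 lies below every gene of that list and CHAC2 lies within its spread. TRIB3, VLDLR, XPOT and LONP1 lie within the spread of their own lists.

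The other ATF4-induced genes outside amino acid metabolism were split. Of 30 listed, 27 were measured, of which 9 were lower, 14 were higher and 4 were uncalled. Their median was 0.26 on the log2 scale. Of all tested genes 30.4% were lower, near the share of this list, and 30.5% were higher, below its share. Against a 1.2-fold change, 9 of the 27 were called lower and 9 higher. The largest decreases with a mean of at least 5 CPM were in ADM2, a secreted peptide hormone (-2.73, SE 0.19), PCK2, the mitochondrial phosphoenolpyruvate carboxykinase (-1.57, SE 0.10), and the transcription factors JDP2 (-1.38, SE 0.19), CEBPG (-1.35, SE 0.07) and ATF5 (-1.29, SE 0.08). ADM2 had 0.972, 1.49 and 1.63 CPM in shKDM2B libraries against 10.0, 8.95 and 9.12 CPM in EV libraries.

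The largest increases in that list were in SQSTM1, KLHL24, TSC22D3, PPP1R15A and CEBPB. SQSTM1, which encodes the autophagy receptor p62 and is a target of NRF2, was at 1735, 1661 and 1786 CPM in shKDM2B libraries against 294.7, 404.2 and 322 CPM in EV libraries, a 5.07-fold increase (edgeR adjusted p 1.97e-06). KLHL24 rose by 1.29 on the log2 scale (SE 0.07), the glucocorticoid-induced TSC22D3 by 0.97 (SE 0.12), PPP1R15A by 0.83 (SE 0.06) and CEBPB by 0.79 (SE 0.14). PPP1R15A encodes GADD34, the inducible subunit that directs a phosphatase to eIF2. DDIT3, which encodes CHOP and forms heterodimers that drive CHAC1 and TRIB3, was at 13.5, 13.7 and 13.4 CPM in shKDM2B libraries and at 12.9, 13.9 and 11.0 CPM in EV libraries (log2 fold change 0.11, SE 0.11, edgeR adjusted p 0.397). ATF3 was at 0.24 (SE 0.11, edgeR adjusted p 0.0813) and passed the threshold without EV replicate 2 (adjusted p 0.0309, with a range over its alternatives of 0.0309 to 0.519). Of the genes with the TGATGNAA motif, CHAC1, CEBPG and JDP2 were lower, HERPUD1 was higher at 0.35, ATF3 did not pass, and FGF21 had at most 1 count in any library.

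**Figure D4:**
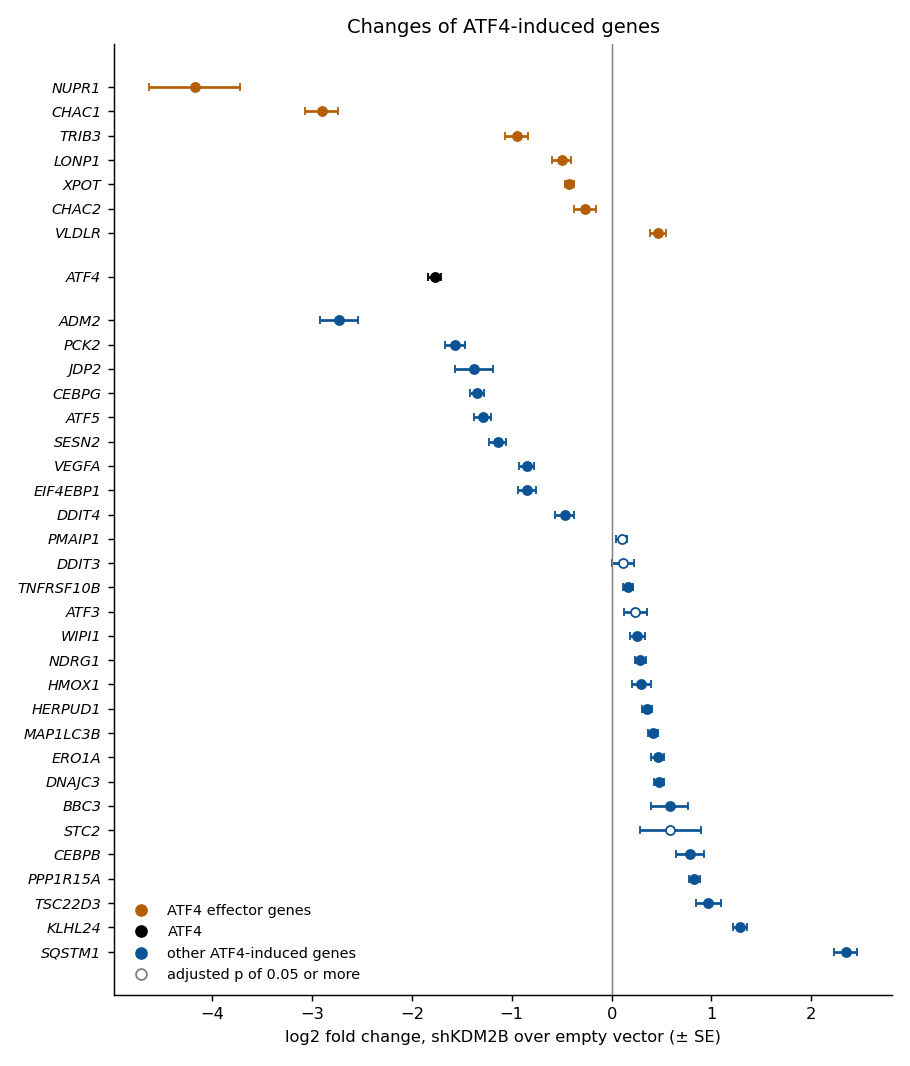
Log2 fold changes with SE (shKDM2B over empty vector, horizontal axis) of the 7 ATF4 effector genes, of ATF4 and of 27 other measured ATF4-induced genes, ordered within each set. Open circles did not pass an edgeR adjusted p of 0.05, and values run from -4.17 for NUPR1 to 2.34 for SQSTM1.

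Upstream of ATF4, genes around eIF2 went both ways. The list of 9 measured genes held eIF2 kinases, the phosphatase subunit PPP1R15B, ATF4 and other factors around eIF2. In it 4 were lower, 2 were higher and 3 were uncalled, where 30.4% of all tested genes were lower and 30.5% higher. EIF2AK2, the kinase PKR, fell by 0.77 on the log2 scale (SE 0.06). The kinase EIF2AK1, chosen after its values were seen, fell by 0.25 (SE 0.05). PPP1R15B, the constitutive phosphatase subunit, rose with 0.77 (SE 0.05), and the inducible subunit PPP1R15A, counted in the previous list, with 0.83 (SE 0.06). The kinases EIF2AK3 (PERK) and EIF2AK4 (GCN2), chosen after their values were seen, had log2 fold changes of 0.20 and -0.08 and did not pass (edgeR adjusted p 0.0974 and 0.163).

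Ranked by level per length, the order in shKDM2B cells was XPOT (44.1 RPKM), LONP1 (28.2), CHAC2 (14.7), TRIB3 (5.07), VLDLR (3.31), CHAC1 (0.839) and NUPR1 (0.0204). In EV cells it was XPOT (59.1 RPKM), LONP1 (40.0), CHAC2 (17.6), TRIB3 (9.80), CHAC1 (6.27), VLDLR (2.41) and NUPR1 (0.371). The libraries of neighbours in either order did not overlap. CHAC1 and VLDLR exchanged places between the groups, and the other 5 genes kept theirs. That exchange rests on the lengths used. Before division by length, VLDLR was above CHAC1, at 31.0 against 1.73 CPM in shKDM2B and 22.5 against 12.9 CPM in EV cells. Exon lengths cover all annotated transcripts of a gene, so a gene expressed mainly as a short transcript is understated.

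For each member, the genes with the most similar profile were sought by the distance between log2 CPM values centred on the mean of the gene, over 6 libraries. A prior count of 2 was added before the logarithm, and candidates were named genes with a mean of at least 5 CPM. Since the group difference dominates these profiles, likeness mainly means a change of like size. CHAC1 lay nearest to GATAD2A (distance 0.339) and BTBD2 (0.373), with log2 fold changes of -2.57 and -2.95. NUPR1 lay nearest to CHAC1 (0.525) and BTBD2 (0.678), with log2 fold changes of -2.90 and -2.95 against its own -4.17. The added count flattens a profile as low as that of NUPR1, so likeness there is not a change of like size. TRIB3 lay nearest to PSMG4 (0.124) and CYBC1 (0.126), XPOT to GOLGA5 (0.041) and XPO6 (0.049), LONP1 to GTF3C6 (0.078) and NCAPH2 (0.089), and VLDLR to HADHB (0.052) and PIGV (0.058). CHAC2 lay nearest to ST7L (0.079) and DOLK (0.111), which did not pass the threshold (edgeR adjusted p 0.0503 and 0.0648) but did without EV replicate 2 (0.000211 and 0.00182, with ranges over their alternatives of 0.000211 to 0.37 and 0.00182 to 0.397).

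**Figure D5:**
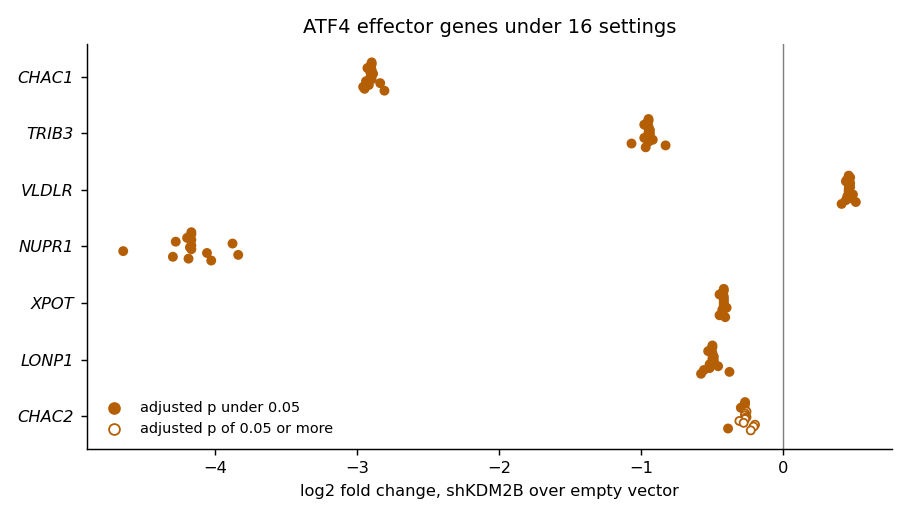
Log2 fold changes (shKDM2B over empty vector, horizontal axis) of the 7 ATF4 effector genes in the reported fit and 15 alternatives in scaling, filter, test, pairing and left-out library, 16 points a gene. Filled points have an adjusted p under 0.05, which held throughout for 6 genes, while CHAC2 has open points.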

How the data were processed

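Gene expression was measured by RNA sequencing of ribosome-depleted total RNA in 3 shKDM2B and 3 EV libraries of MDA-MB-231 cells. The authors deposited raw read counts per gene with versioned Ensembl identifiers. Per the submitters' processing notes, the build was GRCh38 (hg38), and the tools named there are STAR, featureCounts, Trim Galore, limma, DESeq2 and edgeR. The sources used here do not state tool versions, annotation release, strand setting or the treatment of multi-mapping reads. Column names gave the samples. The knockdown columns carry sh, a code and a replicate number, and were taken as shKDM2B, the single shRNA group.

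Identifiers were matched to symbols for 61415 of 61533 rows, and positions came from GENCODE 29 (GRCh38). Low-count genes were removed by filterByExpr (at least 10 counts in a group's worth of libraries, 15 in all), and counts were scaled by TMM and tested with the quasi-likelihood test of edgeR (version 4.0.16 in R 4.3.3, robust, two-sided, Benjamini-Hochberg over 14071 genes). A call is an adjusted p under 0.05. SE is the fold change divided by the root of F. The fit was tested on simulated data. Far fewer genes changed there than the 60.9% called here, so that test does not cover such breadth. DESeq2 1.42.0 and limma 3.58.1 served as alternatives, beside other scalings, filters, a test against a 1.2-fold change and leaving out each library. The paralog ratio added 0.5 to each count (scipy 1.17.1, Python 3.11.15). Promoter windows are RefSeq's.

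Members and lists were chosen with earlier results of these data known. Named genes were the members, KDM2B and ATF4, the 5 largest increases and 5 largest decreases of the other ATF4-induced list together with DDIT3, ATF3 and PPP1R15A, up to 3 changed genes of each other list (mean of at least 5 CPM), and 2 nearest profiles per member. Genes outside this rule are marked where they appear, or named for a motif or marker. A listed gene that is not named is not reported here beyond its list's counts. The labels call replicates biological without naming separate cultures, so p-values cover only the spread among these libraries, possibly a technical one. Library pairs within a group differed by more than sampling noise (1.89 to 8.74 chi-square units per degree of freedom).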

Additional observations from a re-analysis of the deposited data

How the results depend on the processing

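6 of the 7 effectors kept their direction and their call under the 9 alternative fits and with each library left out. Across those 15 settings the log2 fold change of CHAC1 lay from -2.96 to -2.81, that of TRIB3 from -1.07 to -0.83, XPOT from -0.45 to -0.40, LONP1 from -0.58 to -0.38, VLDLR from 0.41 to 0.51 and NUPR1 from -4.65 to -3.84. CHAC2 kept its direction but was not called by DESeq2 (-0.26, adjusted p 0.0843), limma-voom (-0.27, adjusted p 0.0521), edgeR without the robust step (-0.27, adjusted p 0.0539) or the test against a 1.2-fold change (-0.27, adjusted p 0.407), and with a library left out it ran from -0.39 to -0.20. The test against a 1.2-fold change, which asks for larger changes by construction, called 5458 genes across the table, 3 of the eIF2 and ATF4 list, 5 of the glutathione list and 7 of the nuclear export list. The log2 ratio of CHAC1 to CHAC2 differed by -2.62 in the reported setting and kept its sign with another pseudocount and with each library left out. Same-numbered libraries of the groups did not deviate together (correlations 0.118, -0.026 and 0.075), so the numbers were not taken as pairs. A replicate block gave 8479 called genes in place of 8571 and kept all 7 effector calls. No result reversed. Depth limits NUPR1 most, whose shKDM2B counts are at most 2 in a library.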
